A study of Mus musculus with 28 samples.

Results

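The TNF superfamily comprises cytokine ligands related to tumour necrosis factor (TNF) and the receptors that bind them. Here it was taken as every gene whose symbol begins with Tnfsf or Tnfrsf followed by a digit, together with Tnf, Lta, Ltb, Ltbr, Fas, Fasl, Cd27, Cd40, Cd40lg, Cd70 and Ngfr. These symbols matched 43 of the 55291 genes in the deposited tables, namely 17 ligands, 25 receptors and the antisense transcript Tnfsf13os. Their mRNA levels were followed across 8 groups in 3 experiments on LLC cells, a mouse Lewis lung carcinoma line, and on OT1 cells, T cells whose transgenic receptor recognises an ovalbumin peptide. In the first experiment, LLC-OVA-NGFR tumours, which carry ovalbumin as the antigen, were grown under the skin of Rag1 knockout mice, which have no mature T or B cells of their own. Activated OT1 cells were injected into a tail vein on day 9, and OT1 cells (5 libraries) and tumour cells (5 libraries) were sorted from tumours harvested on day 16. In the second, wild-type LLC cells in culture received 200 nM BAY-876, an inhibitor of the glucose transporter GLUT1 (3 libraries), or vehicle (3 libraries) for 36 h. In the third, LLC cells received 200 nM BAY-876 for 24 h and then 20 ng/ml TNF for 32 h (3 libraries), TNF alone (3 libraries), BAY-876 alone (3 libraries) or neither (3 libraries, called control). Whether BAY-876 was still present during the 32 h is not stated in the labels, and 2 of the BAY-876 + TNF libraries carry another compound number in a treatment tag and were grouped by their titles. LLC is a single cell line, every tumour was grown from it, and the labels do not say whether replicates came from separate cultures or mice, so that p-values measure the spread between these libraries, which may be technical.

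Most ligands of the family are trimeric membrane proteins that can be shed, and they act by clustering their receptors. Receptors with a death domain, among them TNFR1 (Tnfrsf1a), Fas and the TRAIL receptor Tnfrsf10b, can assemble a complex that activates caspase-8. Others, among them TNFR2 (Tnfrsf1b), CD27, OX40 (Tnfrsf4), GITR (Tnfrsf18) and CD137 (Tnfrsf9), bind TRAF adaptors, activate NF-kappaB and serve as costimulatory receptors of T cells.

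The 36 h values were counts normalized with DESeq2 by the submitters, and the 32 h and day 16 values were TPM, a measure per transcript length and per library whose sequencing depth is unknown. Normalized counts summed to between 16847994 and 17134536 per 36 h library. Replicates of a group correlated at 0.984 or above in log2 values in the culture experiments and at 0.9141 or above on day 16. The sorted populations carried their own markers. Summed over 8 T cell markers, OT1 libraries held 2264 to 3680 TPM, against 8.37 to 11.8 TPM in tumour libraries. Summed over 6 markers of LLC cells, OT1 libraries held 45.9 to 199 TPM, against 1500 to 1779 TPM in tumour libraries. Summed over 10 myeloid markers, OT1 libraries held 785 to 9361 TPM, against 35.5 to 98.3 TPM in tumour libraries. The highest OT1 myeloid sum lay above every T cell sum. Levels given below for OT1 cells are therefore levels of these libraries, myeloid transcripts included. The label NGFR could not be checked, because the species of that transgene is not stated and mouse Ngfr lay at or below 0.26 TPM in every tumour library. Of the 43 members, 17 passed the filter on low values at 36 h, 19 at 32 h and 31 on day 16. Tnfrsf19 was listed at 0 in every day 16 library, 10 members in every 32 h library and 14 in every 36 h library.

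Promoter windows of RefSeq (build GRCm38.p6, reaching 250 bases before and 50 bases after a gene's annotated start) were available for 32 members. Of these, 4 windows are shown because they belong to the members whose transcripts carried most of the results below: Ltb, the ligand transcript with the highest level in OT1 cells; Tnfrsf9 and Fas, which had the largest fold changes under TNF; and Tnfrsf12a, the receptor transcript with the highest level in tumour cells. All are written 5′ to 3′ on the strand of the gene. Capitals mark a match to the decamer consensus of NF-kappaB, searched on both strands, where overlapping matches were counted separately.
Ltb, chr17:35194257-35194556, plus strand: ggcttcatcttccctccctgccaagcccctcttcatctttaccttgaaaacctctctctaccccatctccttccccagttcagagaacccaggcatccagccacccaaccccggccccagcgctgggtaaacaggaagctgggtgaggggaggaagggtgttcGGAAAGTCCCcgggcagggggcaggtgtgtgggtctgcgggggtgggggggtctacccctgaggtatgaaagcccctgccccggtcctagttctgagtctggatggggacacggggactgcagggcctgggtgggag
Tnfrsf9, chr4:150927749-150928048, plus strand: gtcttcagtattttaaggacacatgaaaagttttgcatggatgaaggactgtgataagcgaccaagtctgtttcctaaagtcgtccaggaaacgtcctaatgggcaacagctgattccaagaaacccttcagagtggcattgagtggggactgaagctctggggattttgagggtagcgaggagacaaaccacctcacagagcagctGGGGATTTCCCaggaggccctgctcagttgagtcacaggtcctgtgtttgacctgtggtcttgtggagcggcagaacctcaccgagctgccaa
Fas, chr19:34290409-34290708, plus strand: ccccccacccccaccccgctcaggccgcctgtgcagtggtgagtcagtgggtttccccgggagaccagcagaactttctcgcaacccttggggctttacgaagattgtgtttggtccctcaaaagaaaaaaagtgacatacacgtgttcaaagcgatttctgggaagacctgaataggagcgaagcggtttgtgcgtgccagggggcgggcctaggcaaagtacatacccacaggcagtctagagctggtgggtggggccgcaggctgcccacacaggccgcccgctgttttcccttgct
Tnfrsf12a, chr17:23677400-23677699, minus strand: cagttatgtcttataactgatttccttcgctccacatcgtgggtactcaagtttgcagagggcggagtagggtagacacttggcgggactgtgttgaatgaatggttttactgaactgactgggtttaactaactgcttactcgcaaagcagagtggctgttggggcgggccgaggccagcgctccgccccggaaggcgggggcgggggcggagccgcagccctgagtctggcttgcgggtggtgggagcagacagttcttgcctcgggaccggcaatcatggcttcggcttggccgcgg
The Tnfrsf9 window, which belongs to the more downstream of its annotated starts, held 2 overlapping matches at 43 and 42 bases before the start, and the Ltb window held 1 match at 87 bases before the start. The window of the more upstream start of Tnfrsf9, chr4:150919905-150920204, held no match, and none lay in the windows of Fas and Tnfrsf12a. Among all members with a window, 3 of 32 (9.38%) held a match, the third being Tnfrsf8, against 1388 of 27025 genes (5.14%) in the whole table. A match describes letters in this window and was not tied to binding or to any level reported here.

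The first comparison set OT1 cells against tumour cells, and the labels do not say which libraries came from the same tumour. OT1 cells carried most of the family's ligand transcripts. Summed over the 17 ligands, they held 553 ± 57.5 TPM, against 57.5 ± 4.01 TPM in tumour cells (mean ± SD, n = 5 each). Summed over the 25 receptors, OT1 cells held 1116 ± 30.7 TPM, against 435 ± 49.1 TPM in tumour cells. Of the 31 members tested, 21 were higher and 5 lower in OT1 cells at an adjusted p under 0.05 (limma, Benjamini-Hochberg over all genes tested), where 74.5% of all 13511 genes tested passed, 30.1% higher and 44.4% lower, so that passing was the usual outcome between these 2 cell types. Because 12 of the 31 members reached 1 TPM only in OT1 libraries, the filter itself favoured a difference in that direction, and the counts describe the tested members and not the family. The 12 were Cd27, Cd40lg, Fasl, Lta, Ltb, Tnf, Tnfrsf13b, Tnfrsf26, Tnfsf4, Tnfsf8, Tnfsf11 and Tnfsf14. Any fold change or p-value given for them below carries this limit. The median log2 fold change was 1.70 over the members tested and -0.21 over all genes tested. In bulk libraries, fewer cells of a type and less RNA per cell cannot be told apart.

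Among the ligands, Ltb, which encodes the membrane anchor of the lymphotoxin heterotrimer, had the highest level in OT1 cells. Ltb had 325, 383, 383, 278 and 319 TPM in the 5 OT1 libraries, against 0.813, 0.195, 0, 0.168 and 0.205 TPM in the 5 tumour libraries. The groups lay far apart, with a log2 fold change of 8.07 (SE 0.16, adjusted p = 4.48e-12). Fasl, the ligand of the death receptor Fas, had 64.2, 64.2, 65.8, 45.1 and 39.4 TPM in OT1 libraries, against 0 to 0.179 TPM in tumour libraries (log2 fold change 5.71, SE 0.16, adjusted p = 4.9e-11). Tnfsf14, which encodes LIGHT, a ligand of the lymphotoxin beta receptor and of HVEM, had 28.8, 31.6, 29.4, 23.2 and 29.5 TPM in OT1 libraries, against 0 to 0.286 TPM in tumour libraries. Its values stayed close together within OT1 cells and its log2 fold change was 4.74 (SE 0.12, adjusted p = 2.66e-11). Tnf itself had 11.5, 20.4, 20.4, 15.7 and 29.9 TPM in OT1 libraries, against 0.131 to 0.316 TPM in tumour libraries (log2 fold change 4.02, SE 0.21, adjusted p = 1.13e-08). Lta, which encodes the soluble lymphotoxin that shares the receptors of TNF, had 7.80, 8.99, 10.9, 9.36 and 7.09 TPM in OT1 libraries. In 4 tumour libraries it was listed at 0, and in the other at 0.0778 TPM. Tnf and Lta thus lay well below Ltb in OT1 cells, and both were close to 0 in tumour cells.

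Further ligands in OT1 cells were Tnfsf8, Tnfsf11, Tnfsf4, Cd40lg and Cd70. Tnfsf8, the ligand of CD30, had 12.6, 13.0, 13.3, 17.2 and 11.4 TPM in OT1 libraries, against 0 to 0.0255 TPM in tumour libraries. Tnfsf11, which encodes RANKL, the inducer of osteoclasts, had 8.83, 9.38, 10.6, 12.1 and 8.45 TPM in OT1 libraries, against 0 to 0.232 TPM in tumour libraries. Tnfsf4, which encodes the OX40 ligand, had 4.77, 5.66, 5.77, 8.46 and 10.5 TPM in OT1 libraries, against 0 to 0.116 TPM in tumour libraries. For none of these 3 did the groups overlap, and their log2 fold changes were 3.84, 3.29 and 2.93 with adjusted p of 1.4e-10, 8.84e-10 and 5.68e-08. Cd40lg, the ligand of CD40, had 2.49, 2.27, 2.29, 1.55 and 2.79 TPM in OT1 libraries and was listed at 0 in every tumour library, and so was Cd70, the ligand of CD27, which had 1.92, 0.416, 3.25, 3.21 and 1.40 TPM in OT1 libraries. No fold is given for these 2 genes, and Cd70 did not pass the filter.

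Tumour cells held 4 ligand transcripts above 5 TPM, and for 3 of them no difference from OT1 cells passed the test. Tnfsf9, the ligand of CD137, had 15.3, 18.2, 13.4, 12.7 and 21.1 TPM in OT1 libraries, against 19.6, 17.9, 17.8, 14.3 and 19.1 TPM in tumour libraries (log2 fold change -0.14, 95% interval -0.47 to 0.18, adjusted p = 0.387). Tnfsf12, which encodes TWEAK, had 5.53, 15.9, 10.1, 10.9 and 44.2 TPM in OT1 libraries, against 12.4, 14.3, 15.7, 18.9 and 22.3 TPM in tumour libraries (log2 fold change -0.25, 95% interval -1.16 to 0.66, adjusted p = 0.597). OT1 replicate 5 stood above the other OT1 libraries for Tnfsf12. Tnfsf13b, which encodes the B cell survival factor BAFF, had 11.0, 10.0, 8.12, 7.28 and 4.08 TPM in OT1 libraries, against 11.1, 10.3, 10.0, 11.9 and 11.0 TPM in tumour libraries (log2 fold change -0.44, 95% interval -0.89 to 0.01, adjusted p = 0.0705). Without OT1 replicate 1 the adjusted p of Tnfsf13b was 0.0266, and without OT1 replicate 2 it was 0.0477. Tnfsf10, which encodes TRAIL, was the exception. It had 28.7, 19.7, 22.2, 18.4 and 12.6 TPM in OT1 libraries, against 8.23, 12.2, 13.9, 10.5 and 9.89 TPM in tumour libraries, and was higher in OT1 cells (log2 fold change 0.81, SE 0.20, adjusted p = 0.00307), although OT1 replicate 5 lay within the range of the tumour libraries. Tnfsf13, which encodes APRIL, did not pass the filter, and its 0.683, 3.31, 1.54, 2.41 and 16.6 TPM in OT1 libraries stood against 0.171 to 0.753 TPM in tumour libraries. Its locus on chromosome 11 overlaps the antisense transcript Tnfsf13os and the gene Tnfsfm13, which also spans Tnfsf12, so that reads may have been split among them. Tnfsf15 and Tnfsf18 stayed at or below 0.83 TPM in every day 16 library.

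**Figure D1:**
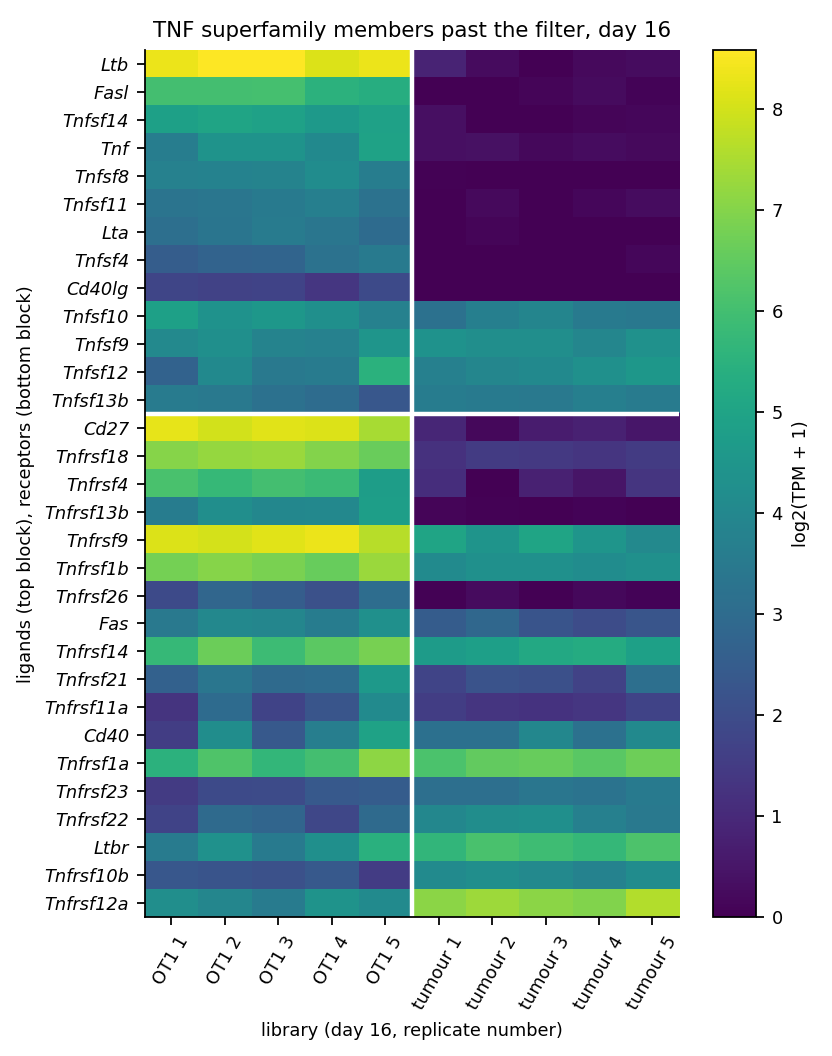
Levels of the 31 TNF superfamily members past the filter in the 10 day 16 libraries, as log2(TPM + 1), with 1 row per member and 1 column per library. OT1 libraries are on the left and tumour libraries on the right, and Ltb, Cd27 and Tnfrsf18 are high in every OT1 library, whereas Tnfrsf12a and Ltbr are higher in every tumour library than in any OT1 library.

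Receptors split between the cell types. The receptor transcripts with the highest mean levels in OT1 cells were Tnfrsf9, Cd27 and Tnfrsf18, all costimulatory receptors of T cells. Cd27 had 307, 257, 293, 283 and 175 TPM in OT1 libraries, against 0.134 to 0.888 TPM in tumour libraries (log2 fold change 7.40, SE 0.18, adjusted p = 1.34e-11). Tnfrsf9 had 283, 262, 295, 322 and 199.7 TPM in OT1 libraries, against 31.5, 20.5, 31.1, 21.3 and 15.6 TPM in tumour libraries (log2 fold change 3.48, SE 0.19, adjusted p = 2.07e-08). Tnfrsf9 thus differed from Cd27 in being well above 0 in tumour cells. Tnfrsf18 had 131, 149, 157, 125 and 97.1 TPM in OT1 libraries, against 1.33, 1.79, 1.68, 1.49 and 1.84 TPM in tumour libraries (log2 fold change 5.65, SE 0.13, adjusted p = 1.16e-11). Tnfrsf4 had 69.0, 52.6, 63.8, 57.3 and 26.5 TPM in OT1 libraries, against 0 to 1.49 TPM in tumour libraries (log2 fold change 4.97, SE 0.30, adjusted p = 3.75e-08). OT1 replicate 5 was the lowest OT1 library for each of these 4 receptors. Tnfrsf14, which encodes HVEM, had 52.9, 101, 58.4, 85.5 and 112 TPM in OT1 libraries, against 25.4, 27.7, 35.4, 37.9 and 28.7 TPM in tumour libraries (log2 fold change 1.33, SE 0.21, adjusted p = 0.000109). Tnfrsf13b, which encodes TACI, a receptor of BAFF and APRIL best known from B cells, had 11.1, 17.9, 14.6, 14.9 and 27.3 TPM in OT1 libraries, against 0 to 0.079 TPM in tumour libraries (log2 fold change 4.07, SE 0.20, adjusted p = 5.67e-09). Tnfrsf13c, the BAFF receptor of B cells, stayed at or below 1.76 TPM in the 10 libraries.

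Tnfrsf25, Tnfrsf17 and Tnfrsf11b, which encode DR3, BCMA and osteoprotegerin, did not pass the filter in any experiment. Tnfrsf25 had 0.499, 0.4, 0.892, 0.759 and 1.16 TPM in OT1 libraries, against 0 to 0.271 TPM in tumour libraries. Tnfrsf17 had 0 to 0.588 TPM in OT1 libraries and was listed at 0 in every tumour library, and Tnfrsf11b had 0 to 0.0629 TPM in OT1 libraries, against 0 to 0.287 TPM in tumour libraries. In the cultures Tnfrsf17 and Tnfrsf11b were listed at 0 throughout, and Tnfrsf25 stayed at or below 1.65 TPM at 32 h and 3.74 normalized counts at 36 h.

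The receptors of TNF differed in balance between the cell types. Tnfrsf1b had 109, 129, 116, 96.4 and 158 TPM in OT1 libraries, against 16.3, 18.6, 18.8, 17.2 and 19.1 TPM in tumour libraries (log2 fold change 2.68, SE 0.12, adjusted p = 3.57e-09). Tnfrsf1a had 44.4, 73.7, 49.9, 63.9 and 139.7 TPM in OT1 libraries, against 70.8, 92.0, 96.4, 83.3 and 103 TPM in tumour libraries, and did not pass the test (log2 fold change -0.37, 95% interval -0.94 to 0.20, adjusted p = 0.214). Tnfrsf1b made up 63.6 ± 7.42% of the summed TPM of both TNF receptors in OT1 cells and 16.9 ± 1.14% in tumour cells (SD, n = 5 each). The lowest OT1 share was 53.0% and the highest tumour share 18.7%. Fas had 10.2, 14.9, 14.2, 11.3 and 19.0 TPM in OT1 libraries, against 4.71, 6.22, 3.71, 2.96 and 3.77 TPM in tumour libraries (log2 fold change 1.50, SE 0.20, adjusted p = 2.57e-05).

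The 5 members that were lower in OT1 cells were all receptors. Tnfrsf12a, which encodes Fn14, the receptor of TWEAK, had 17.9, 14.4, 10.9, 20.1 and 16.4 TPM in OT1 libraries, against 134, 159, 136, 124 and 194 TPM in tumour libraries (log2 fold change -3.16, SE 0.16, adjusted p = 1.19e-08). Ltbr, the receptor of lymphotoxin and LIGHT, had 10.9, 19.1, 10.7, 18.2 and 42.2 TPM in OT1 libraries, against 49.8, 68.6, 59.1, 51.1 and 71.5 TPM in tumour libraries (log2 fold change -1.69, SE 0.31, adjusted p = 0.000379). Tnfrsf10b, the TRAIL receptor with a death domain, had 4.02, 3.67, 3.42, 4.30 and 1.85 TPM in OT1 libraries, against 16.1, 18.1, 15.5, 13.0 and 17.1 TPM in tumour libraries (log2 fold change -1.95, SE 0.17, adjusted p = 9.19e-07). All 3 were lower in every OT1 library than in every tumour library. Tnfrsf22 and Tnfrsf23 encode mouse decoy receptors of TRAIL without a death domain. Tnfrsf22 had 2.33, 6.83, 5.91, 2.59 and 6.82 TPM in OT1 libraries, against 14.7, 17.3, 18.4, 12.4 and 10.2 TPM in tumour libraries. Tnfrsf23 had 1.79, 2.84, 2.92, 4.22 and 4.65 TPM in OT1 libraries, against 7.70, 7.83, 9.29, 8.54 and 10.3 TPM in tumour libraries. Both were lower in OT1 cells, by 1.47 and 1.22 on the log2 scale, with adjusted p of 0.000469 and 9.48e-05. The neighbouring paralog Tnfrsf26 went the other way, with 2.79, 6.11, 4.79, 3.36 and 7.45 TPM in OT1 libraries, against 0 to 0.186 TPM in tumour libraries (log2 fold change 2.38, SE 0.21, adjusted p = 7.76e-07). These 3 genes lie next to each other on chromosome 7 and are close in sequence, so that the division of reads among them is uncertain.

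Ligands and receptors were then read against each other over 27 known pairs, as levels with no test. In 12 pairs the OT1 mean of the ligand and the tumour mean of the receptor were both at least 5 TPM, and in 3 pairs the tumour mean of the ligand and the OT1 mean of the receptor were. The highest such combination was Ltb at 338 ± 45.2 TPM in OT1 cells with Ltbr at 60.02 ± 9.88 TPM in tumour cells (SD, n = 5 each). Tnf and Lta in OT1 cells, at 19.6 ± 6.86 and 8.83 ± 1.49 TPM, were matched in tumour cells by Tnfrsf1a at 89.0 ± 12.4 TPM and Tnfrsf1b at 18.0 ± 1.19 TPM. Tnfsf14 in OT1 cells was matched in tumour cells by Ltbr and by Tnfrsf14 at 31.0 ± 5.33 TPM. Tnfsf10 in OT1 cells, at 20.3 ± 5.87 TPM, was matched in tumour cells by Tnfrsf10b at 16.0 ± 1.94 TPM and by the decoys Tnfrsf22 and Tnfrsf23. The remaining 2 of the 12 were Tnfsf12 with Tnfrsf12a and Tnfsf9 with Tnfrsf9, and these 2 also reached 5 TPM in the other direction, as did Tnfsf13b in tumour cells with Tnfrsf13b in OT1 cells. Fasl fell short of the threshold only on the receptor side, with 55.8 ± 12.5 TPM in OT1 cells and Fas at 4.27 ± 1.25 TPM in tumour cells. Cd70 and Cd27, Tnfsf4 and Tnfrsf4, and Tnfsf18 and Tnfrsf18 had their receptor in OT1 cells, and the receptor lay at or below 1.84 TPM in every tumour library. For Tnfsf8 the receptor Tnfrsf8 stayed below 1 TPM in every library of either cell type. These are transcript levels and say nothing on the proteins.

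**Figure D2:**
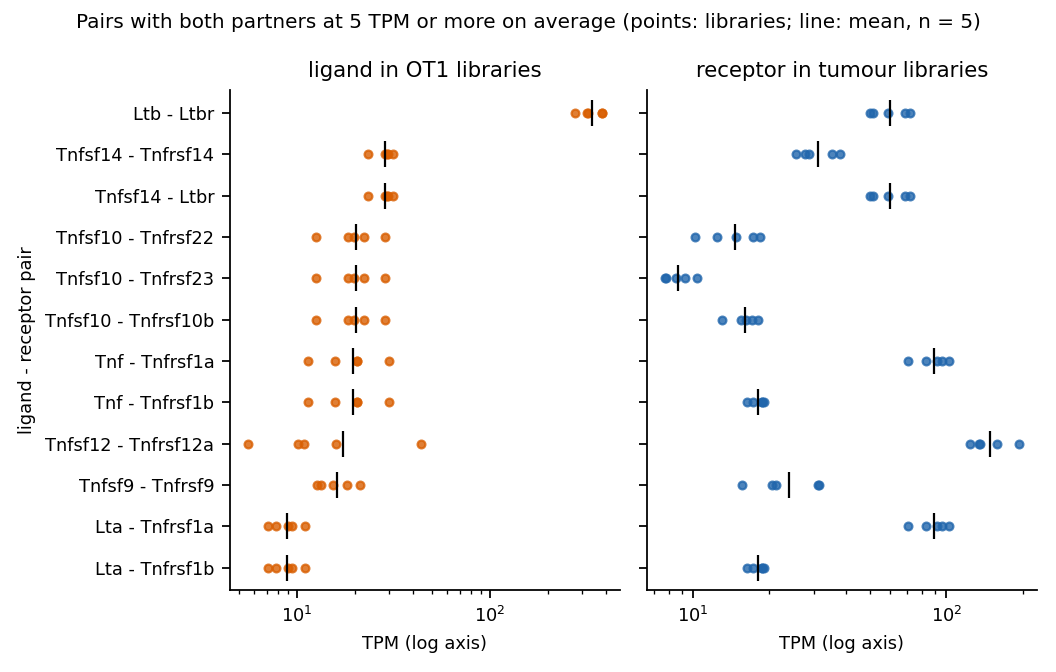
The 12 ligand and receptor pairs of day 16 whose OT1 ligand and tumour receptor both averaged at least 5 TPM. The left panel gives the TPM of the ligand in OT1 libraries and the right panel the TPM of its receptor in tumour libraries, on log axes, with 1 point per library and a line at the mean (n = 5 each). Ltb with Ltbr has the highest ligand level, and Tnfrsf12a, the partner of Tnfsf12, the highest receptor level.

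OT1 libraries also held myeloid transcripts, to very different extents. Summed over 10 myeloid markers, OT1 replicates 1 to 5 held 785, 3677, 1817, 2298 and 9361 TPM with no marker at 0, against 35.5 to 98.3 TPM in tumour libraries, where 1 marker was at 0 in 1 library. Members that were high in OT1 replicate 5 included Tnfrsf1a, Ltbr, Cd40, Tnfrsf11a, Tnfrsf21, Tnfsf12, Tnfsf13, Tnfrsf13b and Tnfrsf14. Tnf, Tnfsf4, Tnfsf9, Cd40lg, Fas, Tnfrsf1b, Tnfrsf23 and Tnfrsf26 also had their highest OT1 value in replicate 5. For Tnf that value was 29.9 TPM, against 11.5 to 20.4 TPM in the other OT1 libraries. Cd40, the receptor of CD40 ligand on antigen-presenting cells, had 1.96, 17.6, 4.30, 11.7 and 29.7 TPM in OT1 libraries, against 8.06, 8.08, 14.6, 8.27 and 15.8 TPM in tumour libraries (log2 fold change -0.16, 95% interval -1.37 to 1.04, adjusted p = 0.794). Its OT1 values thus ran in the same order as the myeloid sum, as did those of Tnfrsf1a, Tnfsf12, Tnfsf13, Tnfrsf13b and Tnfrsf14, given above. Those of Tnfrsf11a and Tnfrsf21, given below, did too. Summed over 5 markers of dendritic cells, OT1 replicates 1 to 5 held 34.3, 85.6, 39.4, 48.3 and 89.8 TPM, again in that order, against 7.57 to 9.90 TPM in tumour libraries. Most of that sum was Itgax, at 25.1, 71.9, 33.4, 38.6 and 77.7 TPM. Flt3 and Xcr1 were also higher in every OT1 library than in any tumour library, Zbtb46 was lower in every one and Clec9a overlapped. The part of myeloid or dendritic cells in these values was not tested. Tnfrsf11a, which encodes RANK, had 1.47, 6.996, 2.34, 3.79 and 16.2 TPM in OT1 libraries, against 1.98, 1.49, 1.37, 1.57 and 2.28 TPM in tumour libraries, a difference that overlapped between the groups and barely passed (log2 fold change 1.04, SE 0.43, adjusted p = 0.0469). Tnfrsf21, which encodes the death receptor DR6, had 5.28, 9.41, 6.77, 7.28 and 23.8 TPM in OT1 libraries, against 2.42, 3.62, 3.24, 2.20 and 7.88 TPM in tumour libraries (log2 fold change 1.16, SE 0.38, adjusted p = 0.0153).

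With OT1 replicates 2, 4 and 5 left out, the 3 OT1 libraries with the most myeloid transcripts, 19 members were higher and 8 lower in OT1 cells, and 24 of the 26 calls were kept. The log2 fold change of Tnfrsf11a was then 0.08 (adjusted p = 0.716) and that of Tnfrsf21 0.63 (adjusted p = 0.151). Tnfrsf1a, Cd40 and Tnfsf12, which had not passed, were lower in OT1 cells without these libraries, with log2 fold changes of -0.89, -1.54 and -1.03 and adjusted p of 0.000488, 0.00274 and 0.0066. The call of Tnfrsf11a was also lost when any of OT1 replicates 2, 4 or 5 or any single tumour library was left out (adjusted p 0.0593 to 0.104). Without OT1 replicate 5 alone, Tnfrsf1a had a log2 fold change of -0.63 (adjusted p = 0.00308) and Tnfsf12 one of -0.66 (adjusted p = 0.0324). Tnfrsf9, Tnfrsf18 and Tnfrsf12a had log2 fold changes of 3.58, 5.78 and -3.30 without the 3 libraries.

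**Figure D3:**
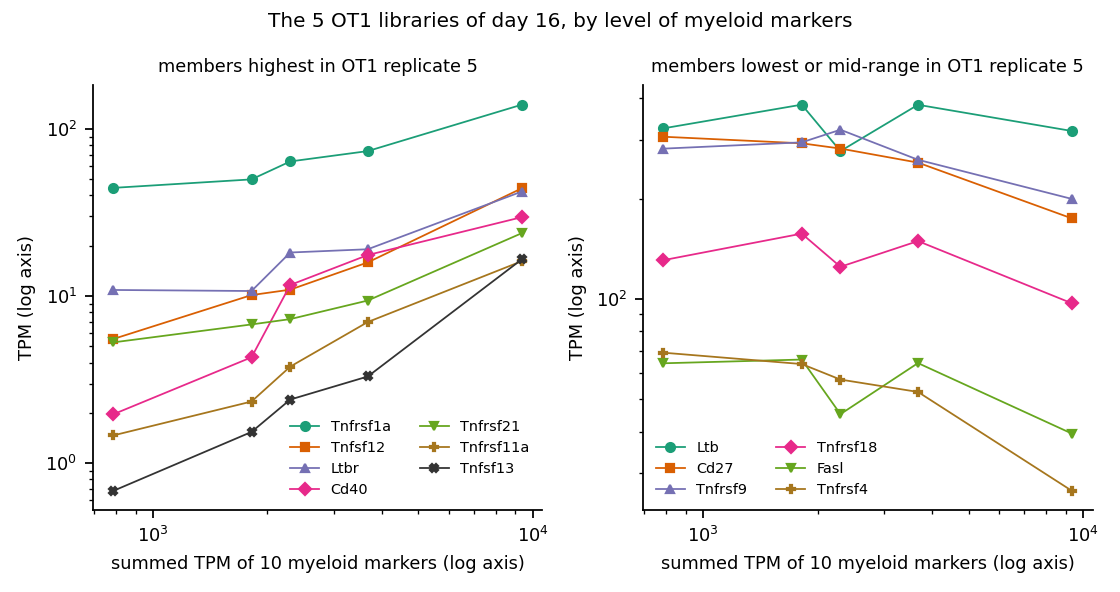
The summed TPM of 10 myeloid markers on the x axis against the TPM of selected members on the y axis, both on log axes, with 1 point per OT1 library of day 16 and lines that join the points of a gene. The left panel holds members that are highest in OT1 replicate 5, whose myeloid sum is 9361 TPM. The right panel holds members that are not, among them Ltb, which stays between 278 and 383 TPM.

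Downstream of the receptors, 37 adaptor and signalling genes were followed. On day 16, 25 were higher and 4 lower in OT1 cells, which is 78.4% of the list, where 74.5% of all genes tested passed, and the median log2 fold change was 0.58, against -0.21 over all genes tested. The 3 with the smallest p were Tnfaip3, the deubiquitinating brake on NF-kappaB, at 230.4 TPM in OT1 cells against 8.68 TPM in tumour cells, Ripk3, the kinase of necroptosis, at 40.2 against 0.48 TPM, and the adaptor Traf1 at 164 against 8.16 TPM.

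The second question was what TNF itself did to the family in cultured LLC cells. Of the 19 members tested at 32 h, 9 were higher and 3 lower with TNF than in control cells (limma, adjusted p under 0.05), where 45.6% of all 12780 genes tested passed, 19.4% higher and 26.1% lower. The authors' deposited table had 8 members higher and 4 lower of 23 listed, where 37.1% of genes passed. In limma the median log2 fold change was 0.36 over the 19 members tested, against -0.06 over all genes tested. Among the members tested, Fas and Tnfrsf9 had the largest fold changes. Fas had 8.99, 10.3 and 8.19 TPM in TNF libraries, against 0, 0.305 and 0.195 TPM in control libraries (log2 fold change 3.12, SE 0.16, adjusted p = 3.93e-08). It reached 1 TPM only in libraries that had received TNF, so that its passing the filter rested on them, and the + 1 scale understates its fold. Tnfrsf9 had 36.1, 33.2 and 40.4 TPM in TNF libraries, against 3.83, 3.25 and 2.87 TPM in control libraries (log2 fold change 3.12, SE 0.12, adjusted p = 4.25e-09). In the authors' deposited table the log2 fold changes of Fas and Tnfrsf9 under TNF were 6.12 and 3.54. The same table listed Ngfr, the low-affinity receptor of neurotrophins, as lower under TNF (log2 fold change -4.20, adjusted p = 0.00896). Ngfr did not pass the filter used here, with 0, 0 and 0.0479 TPM in TNF libraries, against 0.15, 0.241 and 0.532 TPM in control libraries.

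Other receptors rose less. Tnfrsf12a had 123, 141 and 144 TPM in TNF libraries, against 93.2, 83.5 and 96.7 TPM in control libraries (log2 fold change 0.57, SE 0.07, adjusted p = 3.19e-05). Tnfrsf10b had 22.3, 20.9 and 21.5 TPM in TNF libraries, against 16.7, 16.3 and 16.6 TPM in control libraries (log2 fold change 0.36, SE 0.06, adjusted p = 0.000638). Neither gene overlapped between the groups. Tnfrsf21, Tnfrsf22, Tnfrsf23 and Tnfrsf4 also passed, with log2 fold changes of 0.45, 0.52, 0.56 and 0.53, and their mean levels in TNF cells were 6.08, 11.7, 5.58 and 1.86 TPM, against 4.27, 7.95, 3.45 and 0.951 TPM in control cells. These 4 calls were weak. Tnfrsf21 was lost without control replicate 2 or 3 (adjusted p up to 0.0567), Tnfrsf22 without TNF replicate 1 or 2 or control replicate 2 or 3 (up to 0.0975), Tnfrsf23 without TNF replicate 2 or 3 or control replicate 2 or 3 (up to 0.102) and Tnfrsf4 without TNF replicate 1 or 3 or any control replicate (up to 0.143). Tnfrsf4 also had an adjusted p above 0.05 in the authors' deposited table.

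Among the ligands, Tnfsf13b had 7.14, 9.52 and 8.70 TPM in TNF libraries, against 2.66, 3.65 and 4.82 TPM in control libraries (log2 fold change 1.02, SE 0.20, adjusted p = 0.0012). The 3 members that fell were both receptors of TNF and the ligand TWEAK. Tnfrsf1a had 54.0, 55.0 and 52.2 TPM in TNF libraries, against 74.1, 76.5 and 71.5 TPM in control libraries (log2 fold change -0.45, SE 0.04, adjusted p = 4.75e-06). Tnfrsf1b had 10.6, 10.1 and 9.67 TPM in TNF libraries, against 16.8, 16.4 and 17.1 TPM in control libraries (log2 fold change -0.68, SE 0.06, adjusted p = 4.42e-06). Both TNF receptors were thus lower in every TNF library than in every control library. Tnfsf12 had 13.3, 13.5 and 13.2 TPM in TNF libraries, against 18.9, 21.8 and 17.8 TPM in control libraries (log2 fold change -0.51, SE 0.11, adjusted p = 0.00205). Tnf itself stayed at or below 0.18 TPM in all 12 libraries of the 32 h experiment. Ltbr, at 54.8 ± 7.06 TPM in TNF cells and 52.2 ± 1.99 TPM in control cells (SD, n = 3 each), did not pass.

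Of the 37 signalling genes, 36 were tested at 32 h, and 16 were higher and 6 lower with TNF. That is 61.1% of those tested, where 45.6% of all genes tested passed. Nfkbie, Nfkbia and Nfkb2, which encode inhibitors and a subunit of NF-kappaB, had the smallest p. Their levels were 25.6, 335 and 95.9 TPM in TNF cells, against 1.64, 43.7 and 25.1 TPM in control cells. The median log2 fold change of the list was 0.10, against -0.06 over all genes tested.

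**Figure D4:**
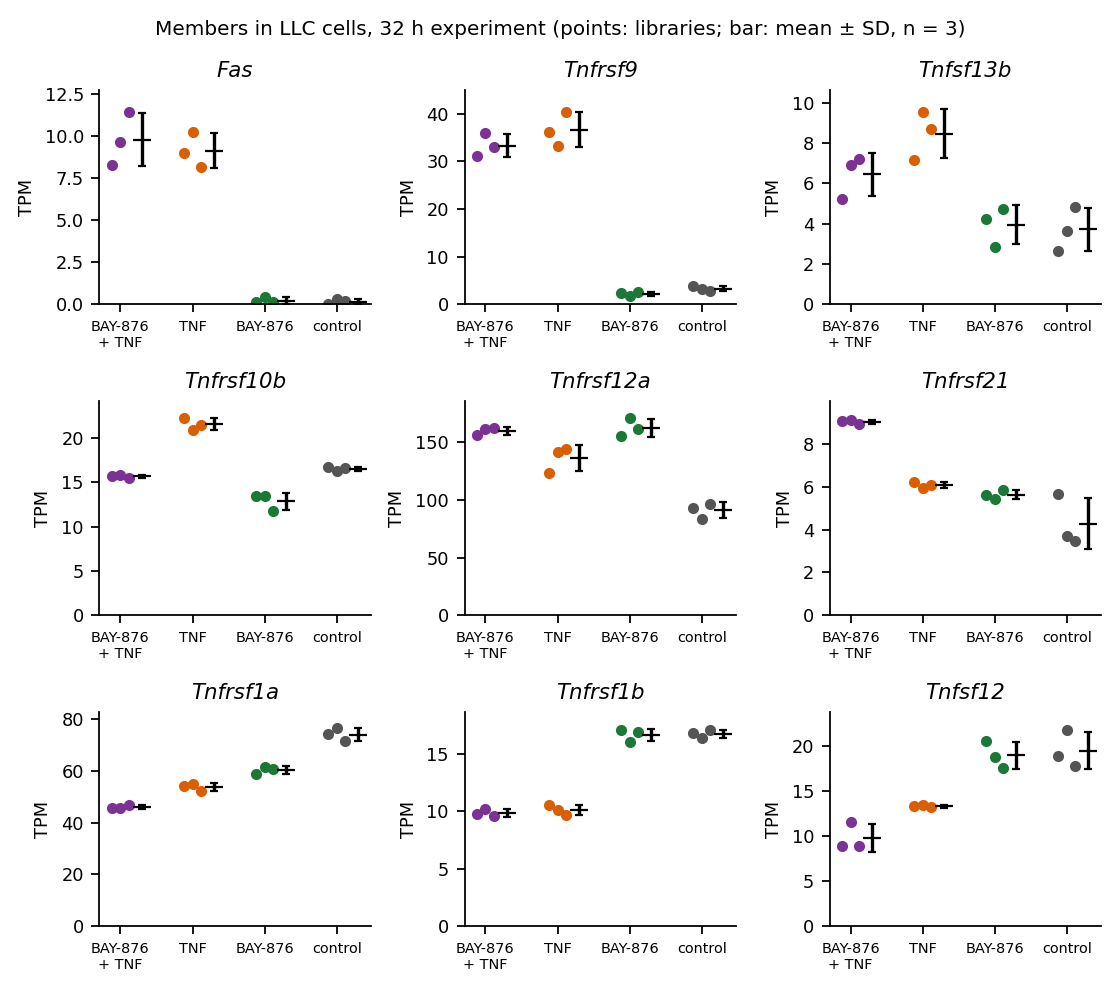
TPM of TNF superfamily members in cultured LLC cells at 32 h, 1 panel per gene, with a point for each of 3 libraries per group and a bar at the mean ± SD. Groups run from BAY-876 + TNF, TNF and BAY-876 on the left to control on the right. Fas and Tnfrsf9 are high in both groups that received TNF, Tnfrsf12a is high in all groups but control, and Tnfrsf1a is lowest with both agents.

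The third question was the response to BAY-876 alone, which was measured in both culture experiments. At 32 h, 8 of 19 members passed, 4 higher and 4 lower with BAY-876 than in control cells, where 37.4% of all genes tested passed, 11.5% higher and 25.8% lower. The authors' deposited table had 5 members higher and 2 lower of 20 listed, where 31.6% of genes passed. One of its 5 was Ltbr (log2 fold change 0.26, adjusted p = 0.00375 in the authors' deposited table), which did not pass in limma. Ltbr had 62.6, 55.4 and 56.6 TPM in BAY-876 libraries, against 52.0, 54.3 and 50.4 TPM in control libraries, without overlap (log2 fold change 0.15, SE 0.09, adjusted p = 0.23). Tnfrsf12a had the largest rise. It had 155, 171 and 162 TPM in BAY-876 libraries, against 93.2, 83.5 and 96.7 TPM in control libraries (log2 fold change 0.83, SE 0.07, adjusted p = 5.91e-06). Tnfrsf22 had 14.1, 12.9 and 15.02 TPM in BAY-876 libraries, against 9.99, 7.81 and 6.03 TPM in control libraries (log2 fold change 0.77, SE 0.17, adjusted p = 0.00373). Tnfsf9, the ligand of CD137, had 15.5, 14.7 and 15.1 TPM in BAY-876 libraries, against 9.03, 11.97 and 9.57 TPM in control libraries (log2 fold change 0.53, SE 0.12, adjusted p = 0.00373). These 3 genes did not overlap between the groups. Tnfrsf21 had 5.62, 5.43 and 5.83 TPM in BAY-876 libraries, against 5.64, 3.69 and 3.48 TPM in control libraries, which overlapped (log2 fold change 0.35, adjusted p = 0.0479). That call was lost without any single BAY-876 replicate and without control replicate 2 or 3 (adjusted p up to 0.172).

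The 4 members that fell with BAY-876 at 32 h were receptors. Tnfrsf1a had 58.8, 61.5 and 60.7 TPM in BAY-876 libraries, against the 71.5 to 76.5 TPM of control libraries (log2 fold change -0.29, SE 0.04, adjusted p = 0.000296). Tnfrsf10b had 13.4, 13.4 and 11.7 TPM in BAY-876 libraries, against 16.7, 16.3 and 16.6 TPM in control libraries (log2 fold change -0.34, SE 0.06, adjusted p = 0.00149). Cd40 had 0.263, 0.904 and 0.623 TPM in BAY-876 libraries, against 1.90, 2.13 and 1.12 TPM in control libraries (log2 fold change -0.77, SE 0.23, adjusted p = 0.0229). Tnfrsf9 had 2.29, 1.66 and 2.53 TPM in BAY-876 libraries, against 3.83, 3.25 and 2.87 TPM in control libraries (log2 fold change -0.45, SE 0.12, adjusted p = 0.0128). All 4 were lower in every BAY-876 library. The call of Cd40 was lost without BAY-876 replicate 1 (adjusted p = 0.087), control replicate 1 (0.0687) or control replicate 2 (0.0826), and that of Tnfrsf9 without control replicate 1 (0.0524). Cd40 and Tnfrsf9 also had adjusted p above 0.05 in the authors' deposited table, at 0.0554 and 0.314. In the signalling list none of 36 genes was higher in limma (1 at an unadjusted p under 0.05) and 9 were lower. That is 25% of those tested, all lower, where 37.4% of all genes tested passed, 25.8% lower. The 3 with the smallest p were Casp8, which encodes caspase-8, at 26.8 TPM in BAY-876 cells against 47.4 TPM in control cells, Adam17, the protease that sheds TNF and its receptors, at 48.8 against 65.1 TPM, and the adaptor Traf4 at 16.7 against 24.5 TPM.

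At 36 h, 4 of 17 members passed, 1 higher and 3 lower with BAY-876 than with vehicle, where 14.4% of all 12937 genes tested passed, 7.34% higher and 7.1% lower. Tnfrsf9 had 270.5, 333 and 226 normalized counts in BAY-876 libraries, against 207, 160.4 and 180.1 normalized counts in vehicle libraries (log2 fold change 0.59, SE 0.16, adjusted p = 0.0418). Tnfrsf12a had 1888, 1670.1 and 1562 normalized counts in BAY-876 libraries, against 2089, 2155 and 2188 normalized counts in vehicle libraries (log2 fold change -0.33, SE 0.07, adjusted p = 0.0211). Tnfrsf21 had 164, 159 and 179.8 normalized counts in BAY-876 libraries, against 239.7, 234 and 273 normalized counts in vehicle libraries (log2 fold change -0.57, SE 0.12, adjusted p = 0.0155). Each of these 3 genes separated the groups without overlap, as did Tnfrsf10b, given next. The same held for Tnfrsf1b and Tnfsf9, which did not pass. Tnfrsf10b had 628, 636 and 589.6 normalized counts in BAY-876 libraries, against 775, 742 and 717 normalized counts in vehicle libraries (log2 fold change -0.27, SE 0.07, adjusted p = 0.0418). The count of 4 rested on single libraries. It was 1 without vehicle replicate 1, 1 without vehicle replicate 2, 0 without vehicle replicate 3 (5 at an unadjusted p under 0.05 in limma), 1 without BAY-876 replicate 2 and 2 without BAY-876 replicate 3, with adjusted p up to 0.142 for Tnfrsf10b, 0.084 for Tnfrsf12a, 0.0707 for Tnfrsf21 and 0.137 for Tnfrsf9. It stayed at 4 without BAY-876 replicate 1, although Tnfrsf9 was then lost (adjusted p = 0.0618) and Cd40 gained (0.0466). With quantile normalization 0 members were higher and 3 lower. Cd40 had 33.7, 17.5 and 21.5 normalized counts in BAY-876 libraries, against 49.3, 30.5 and 61.3 normalized counts in vehicle libraries (log2 fold change -0.92, 95% interval -1.68 to -0.16, adjusted p = 0.0987 with all libraries). Tnfrsf1a averaged 1339.6 ± 34.5 normalized counts in BAY-876 cells and 1300.3 ± 44.6 in vehicle cells (SD, n = 3 each), with a log2 fold change of 0.04 (95% interval -0.09 to 0.18). The other members that averaged 50 normalized counts did not pass. Ltbr had 952 to 1111 normalized counts in BAY-876 libraries, against 1017 to 1043 in vehicle libraries, and Tnfrsf1b had 608 to 697 in BAY-876 libraries, against 529 to 607 in vehicle libraries. Tnfsf9 had 218 to 288 normalized counts in BAY-876 libraries, against 186 to 216 in vehicle libraries. Over all 6 libraries Tnfrsf22 had 292 to 433 normalized counts, Tnfrsf23 124 to 170.3, Tnfsf12 114 to 175, Tnfrsf11a 66.5 to 129.6 and Tnfsf13b 69.97 to 94.4. Of the 36 signalling genes tested 4 were higher and 3 lower, which is 19.4%, where 14.4% of all genes tested passed. The 3 with the smallest p were the adaptor Traf3 at 1144 normalized counts with BAY-876 against 1512 with vehicle, Relb at 138 against 84.9 and Nfkb2 at 1088 against 899.

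The responses to BAY-876 in the 2 culture experiments were set side by side. Of 17 members tested in both, 9 (52.9%) had the same sign, where 56.7% of all 12086 genes tested in both did. Of the 4 members that passed in both, only Tnfrsf10b had the same sign, being lower with BAY-876 each time. Over all genes, 7.71% passed in both, and 668 of these 932 (71.7%) had the same sign. Tnfrsf12a was lower with BAY-876 at 36 h and higher at 32 h, and Tnfrsf9 was higher at 36 h and lower at 32 h, in each case with no overlap between the libraries of the 2 groups. Tnfrsf21 was lower at 36 h and higher at 32 h. Tnfsf9 was higher in every BAY-876 library in both experiments, with log2 fold changes of 0.35 at 36 h (adjusted p = 0.112) and 0.53 at 32 h. The experiments differ in exposure, in control, in unit and in normalization, and the difference between them was not tested.

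**Figure D5:**
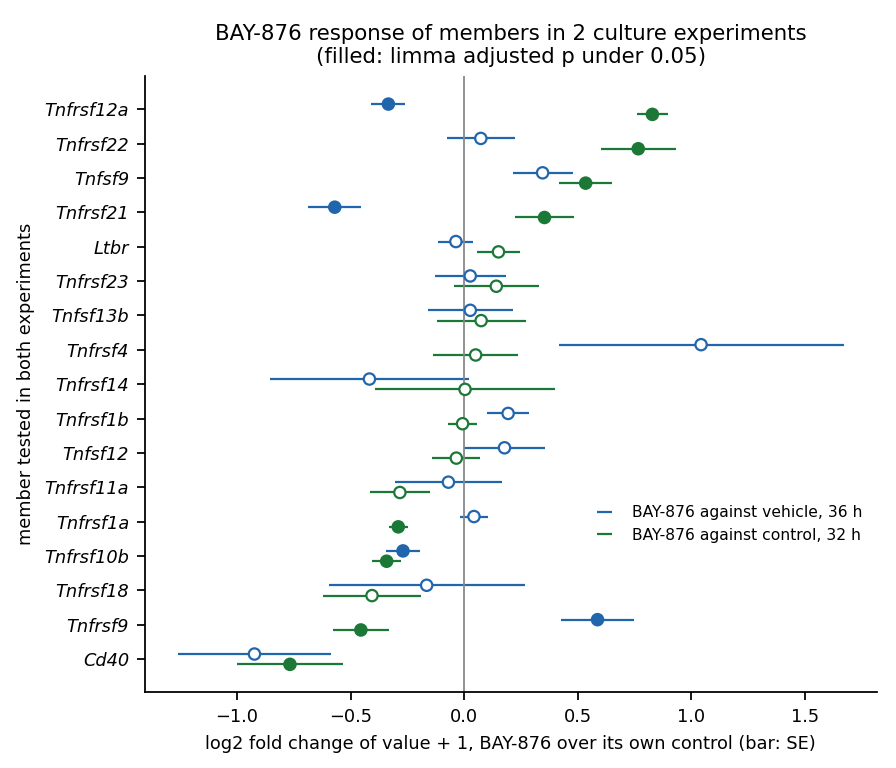
Log2 fold changes of members under BAY-876 against vehicle at 36 h and against control at 32 h, on log2(value + 1) scales, for the 17 members tested in both experiments. Points are filled where limma gave an adjusted p under 0.05, and bars are ± 1 SE. Tnfrsf12a, Tnfrsf9 and Tnfrsf21 have opposite signs in the 2 experiments, and Tnfrsf10b is below 0 in both.

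The last question was whether BAY-876 changed the family in cells that also received TNF. With both agents, 10 of 19 members passed against BAY-876 alone, 6 higher and 4 lower, where 44.2% of all genes passed, 19.3% higher and 24.8% lower. The authors' deposited table had 6 members higher and 3 lower of 20 listed, where 36.3% of genes passed. Fas had 8.28, 9.66 and 11.5 TPM with both agents, against 0.119, 0.435 and 0.13 TPM with BAY-876 alone (log2 fold change 3.14, SE 0.16, adjusted p = 4e-08). Tnfrsf9 had 31.1, 35.8 and 32.9 TPM with both agents, against 2.29, 1.66 and 2.53 TPM with BAY-876 alone (log2 fold change 3.45, SE 0.12, adjusted p = 2.12e-09). Both were thus higher with TNF also among cells that had received BAY-876. Cd40, Tnfrsf21, Tnfsf13b and Tnfrsf10b were also higher, with log2 fold changes of 1.01, 0.60, 0.60 and 0.27, and Tnfrsf1a, Tnfrsf1b, Tnfsf12 and the antisense transcript Tnfsf13os were lower, by 0.38, 0.71, 0.90 and 1.01 in size on the log2 scale. Tnfsf13os was low throughout, with 0.541, 0 and 0.493 TPM with both agents, against 1.71, 1.71 and 1.54 TPM with BAY-876 alone. It reached 1 TPM in no library with both agents, so that its passing the filter rested on the other groups. Its adjusted p in the authors' deposited table was 0.185. The call of Tnfsf13b was lost without BAY-876 + TNF replicate 2 or 3 or BAY-876 replicate 2 (adjusted p up to 0.107). Tnfrsf12a had 156, 162 and 162 TPM with both agents, which lay within the 155 to 171 TPM of BAY-876 alone (log2 fold change -0.02, 95% interval -0.17 to 0.12, adjusted p = 0.812). Of the signalling genes 17 were higher and 6 lower with both agents than with BAY-876 alone. That is 63.9% of the 36 tested, where 44.2% of all genes passed.

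Against TNF alone, 5 of 19 members passed with both agents, 2 higher and 3 lower, where 34% of all genes passed, 10.4% higher and 23.6% lower. The authors' deposited table had 2 members higher and 1 lower of 18 listed, where 27.9% of genes passed. Tnfrsf12a was higher than the 123, 141 and 144 TPM of TNF alone (log2 fold change 0.23, SE 0.07, adjusted p = 0.0194), a call that was lost without BAY-876 + TNF replicate 2 or 3 or TNF replicate 1 (adjusted p up to 0.0745). Tnfrsf21 had 9.08, 9.10 and 8.93 TPM with both agents, against 6.22, 5.93 and 6.10 TPM with TNF alone (log2 fold change 0.50, SE 0.13, adjusted p = 0.0101). Tnfrsf10b had 15.7, 15.8 and 15.4 TPM with both agents, against 22.3, 20.9 and 21.5 TPM with TNF alone (log2 fold change -0.44, SE 0.06, adjusted p = 0.000348). Both genes separated the groups. Tnfrsf1a had 45.6, 45.8 and 46.7 TPM with both agents, against 54.0, 55.0 and 52.2 TPM with TNF alone (log2 fold change -0.22, SE 0.04, adjusted p = 0.00206). Tnfsf12 had 8.89, 11.6 and 8.87 TPM with both agents, against 13.3, 13.5 and 13.2 TPM with TNF alone (log2 fold change -0.42, SE 0.11, adjusted p = 0.00972). In the authors' deposited table Tnfrsf1a and Tnfsf12 had adjusted p of 0.199 and 0.141 in this comparison. For Fas the log2 fold change between both agents and TNF alone was 0.08 (95% interval -0.26 to 0.43) and for Tnfrsf9 it was -0.13 (95% interval -0.40 to 0.14), with adjusted p of 0.725 and 0.448. Of the signalling genes 1 was higher and 13 lower with both agents. That is 38.9% of the 36 tested, where 34% of all genes passed, 23.6% lower. The 3 with the smallest p were Casp8 at 22.6 TPM with both agents against 37.6 TPM with TNF alone, Cflar, an inhibitor of caspase-8, at 15.5 against 21.8 TPM, and Cyld, a deubiquitinase of the TNF receptor complex, at 12.1 against 17.8 TPM.

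With both agents against control, 10 of 19 members passed, 5 higher and 5 lower, where 58.8% of all genes passed, 20.9% higher and 37.9% lower. Tnfrsf1a, at 46.0 ± 0.598 TPM with both agents and 74.0 ± 2.50 TPM in control cells (SD, n = 3 each), fell by 0.67 on the log2 scale (adjusted p = 8.85e-08). Tnfsf12, at 9.79 ± 1.58 TPM with both agents and 19.5 ± 2.07 TPM in control cells, fell by 0.93 (adjusted p = 1.34e-05). The other 3 that fell were Tnfrsf1b, Tnfrsf18 and Tnfsf13os, and Fas, Tnfrsf9, Tnfrsf21, Tnfrsf12a and Tnfsf13b rose. Tnfrsf18 had 1.05, 1.47 and 0.682 TPM with both agents, against 2.96, 1.50 and 2.67 TPM in control libraries. Tnfsf13os had 0.541, 0 and 0.493 TPM with both agents, against 1.10, 1.84 and 0.503 TPM in control libraries, which overlapped. The call of Tnfrsf18 was lost without BAY-876 + TNF replicate 3 or control replicate 1 or 3 (adjusted p up to 0.0654), and that of Tnfsf13os without BAY-876 + TNF replicate 2 or control replicate 1 or 2 (up to 0.151). Quantile normalization, which moved the median of all genes in this comparison by 0.148 on the log2 scale, gave 8 higher and 3 lower.

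Tnfrsf12a was the member whose response to BAY-876 differed with TNF. The interaction, which takes the BAY-876 response of TNF-free cells from that of TNF-treated cells, was -0.59 on the log2 scale (SE 0.10, 95% interval -0.80 to -0.39, adjusted p = 0.011), 1 of 19 members, where 1.56% of all genes passed, 0.736% higher and 0.822% lower. Its mean was 159.8 TPM with both agents, 136 TPM with TNF, 162 TPM with BAY-876 and 91.1 TPM in control cells. Each agent alone was thus accompanied by a higher level, and the level with both was close to that with BAY-876 alone. The interaction passed without each of the 12 libraries in turn. Tnfrsf22 had an interaction of -0.89 (SE 0.23, adjusted p = 0.0913) and Tnfsf9 one of -0.53 (SE 0.16, adjusted p = 0.149), and neither passed. None of the 36 signalling genes passed for the interaction in limma, and 6 had an unadjusted p under 0.05.

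Levels in sorted tumour cells and in cultured LLC cells come from separately normalized tables and were not tested against each other. Tnfrsf12a, Tnfrsf1a, Ltbr, Tnfrsf1b, Tnfrsf10b, Tnfrsf22, Tnfsf12 and Tnfsf9 averaged above 5 TPM in tumour cells and in each of the 4 culture groups. Fas averaged 4.27 ± 1.25 TPM in tumour cells (SD, n = 5), beside 9.15 ± 1.05 TPM in TNF cells and 0.167 ± 0.154 TPM in control cells (SD, n = 3 each). Tnfrsf9 averaged 24.0 ± 6.997 TPM in tumour cells, beside 36.6 ± 3.66 TPM in TNF cells and 3.32 ± 0.482 TPM in control cells. For both genes the tumour level lay between the control and TNF levels of the cultures. Tnfrsf14 averaged 31.0 ± 5.33 TPM in tumour cells, beside 5.59 ± 3.25 TPM in control cells, and Cd40 averaged 11.0 ± 3.91 TPM in tumour cells, beside 2.97 ± 1.25 TPM in TNF cells and 1.72 ± 0.532 TPM in control cells. Tnfsf10 averaged 10.9 ± 2.16 TPM in tumour cells, and in the cultures it did not pass the filter. These 3 tumour means lay above each of the 4 culture means of the same gene. The summed myeloid markers were 35.5 to 98.3 TPM in tumour libraries and 13.1 to 24.5 TPM in the 32 h cultures. Of 6 fibroblast markers, the sum was 329.6 to 773 TPM in tumour libraries and 304 to 867 TPM in the cultures. Dcn had 23.7 to 50.5 TPM in tumour libraries and 0.430 to 3.61 TPM in the cultures, and Lum 20.5 to 39.8 TPM in tumour libraries and 0.0726 to 0.946 TPM in the cultures. Col1a1 had 3.09 to 114 TPM in tumour libraries and 0 to 0.229 TPM in the cultures. The ranges of Col3a1, Pdgfra and Pdgfrb overlapped between tumour libraries and cultures. The part of other cells in these levels was not tested.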

How the data were processed

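RNA-seq libraries (28, in 8 groups of 3 experiments) were compared as deposited. Per the labels' protocols, RNA was extracted with Trizol and SMARTER mRNA libraries were prepared. Per the submitters' processing notes, STAR 2.6.1d, Salmon 0.14.1 (36 h) or 0.13.1 (32 h and day 16), DESeq2 1.34.0 and mm10 were used, with no role or settings stated. The authors deposited 36 h values as a signal, namely normalized counts, from which whole reads could not be recovered, and 32 h and day 16 values as TPM. The authors' deposited tables of log2 fold changes and adjusted p-values (p-value columns) for 4 comparisons at 32 h are quoted by name. In the 32 h table, 24 columns without a matching sample were not used. Sequencing depth is unknown, so no counting error is given, and precision rests on the spread between libraries.

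Values were tested as log2(value + 1) with limma 3.58.1 in R 4.3.3, with a mean-variance trend, two-sided, on all genes with at least 10 normalized counts in 3 libraries (36 h), 1 TPM in 3 libraries (32 h, a single fit of all 12) or 1 TPM in 5 libraries (day 16). Adjusted p-values are Benjamini-Hochberg over all genes tested, with a threshold of 0.05. The share of all genes whose groups did not overlap was not computed, so statements on overlap describe the named genes only. Fold changes on this scale understate the change of low genes. The fit was tested on simulated data. The members and lists were chosen with earlier results of these data known. Every member is accounted for. Values per library, their range or their mean are given for those that averaged 5 TPM or 50 normalized counts in a group or passed a test, and the 3 signalling genes with the smallest p are named. Sequences come from RefSeq (GRCm38.p6) and gene positions from GENCODE M21. The labels do not say that replicate numbers pair libraries, and the main fits did not pair them. Deviations of same-numbered libraries correlated at -0.0742 to -0.0194 in the 36 h experiment, at -0.192 to 0.12 in that of 32 h and at 0.0453 to 0.111 in that of day 16. Differently numbered libraries were not compared in this way, so pairing was not settled. Alternatives were another pseudocount, another filter, none, quantile normalization, a replicate block, only the groups compared and libraries left out.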

Additional observations from a re-analysis of the deposited data

Results flagged for a closer look

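In OT1 replicate 5 of day 16, 3 members stood far above the other OT1 libraries. Ltbr had 42.2 TPM there, with the next highest OT1 library at 19.1 TPM. Tnfrsf21 had 23.8 TPM, with the next at 9.41 TPM, and Tnfsf12 had 44.2 TPM, with the next at 15.9 TPM. These are 3 of 40 sets of 5 libraries examined for a sample far from the others, and chance alone sets apart about 1 in 20. The same library had the highest sum of myeloid markers, 9361 TPM, and the part of that sum in these values was not tested.

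The response of Tnfrsf12a to BAY-876 differed between LLC cells with and without TNF, by -0.59 on the log2 scale, as tested by the interaction term in limma (adjusted p = 0.011). The response of Tnfrsf12a to BAY-876 had opposite signs in the culture experiments, at -0.33 against vehicle at 36 h and 0.83 against control at 32 h. That of Tnfrsf9 did too, at 0.59 at 36 h and -0.45 at 32 h. For both genes all BAY-876 libraries lay on opposite sides of their controls in the 2 experiments, and the difference between experiments was not tested.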

How the results depend on the processing

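Leaving out 1 library at a time, the number of members that passed was 0 to 4 for BAY-876 at 36 h (4 with all libraries), 6 to 7 for BAY-876 at 32 h (8), 8 to 11 for TNF (12), 9 to 11 for both agents against BAY-876 (10), 4 to 6 against TNF (5), 9 to 10 against control (10), 1 each time for the interaction and 25 to 27 for OT1 against tumour cells (26). Over all genes the ranges were 643 to 2391, 3917 to 4106, 5065 to 5361, 4898 to 5274, 3586 to 3999, 6845 to 7202, 110 to 252 and 9702 to 10230 in the same order. The 36 h count of all genes (1868) was 766, 714 and 643 without vehicle replicates 1, 2 and 3 and 1075 without BAY-876 replicate 3, and that of the interaction (199) was 110 to 131 without control replicate 1 or 2, BAY-876 replicate 2 or 3 or TNF replicate 2 or 3, where fewer libraries entered the fit. With the replicate number as a block, 2 members passed at 36 h in place of 4, Tnfrsf9 and Tnfrsf10b being lost. The cause was not tested, and the labels do not say that the numbers pair the libraries. The block also took Tnfrsf21 under BAY-876 at 32 h to an adjusted p of 0.0507. Over the 89 member results named here and their 1182 alternatives, 1084 kept direction and side of the threshold, 85 lost the call, 8 gained it and 5 changed sign. The sign changes concerned differences near 0 that had not passed. Leaving out 1 library at a time, the log2 fold change of Tnfrsf12a with both agents against BAY-876 ran between -0.055 and 0.013, that of Fas with both agents against TNF between -0.024 and 0.19, that of Cd40 in OT1 against tumour cells between -0.56 and 0.28 (0.073 without OT1 replicate 3) and that of Tnfsf12 there between -0.66 and 0.038. Quantile normalization moved the balance of higher to lower calls over all genes to 2238 and 2305 for BAY-876 at 32 h (1473 and 3303 as deposited), 2877 and 2742 for TNF (2485 and 3341), 2851 and 2690 for both agents against BAY-876 (2469 and 3175), 1860 and 2048 against TNF (1323 and 3018) and 3676 and 3504 against control (2671 and 4840). Under it, Tnfrsf9 under BAY-876 had adjusted p of 0.0543 at 36 h and 0.0565 at 32 h. TPM carry no depth, so low members such as Tnfrsf4 and Cd40 in LLC cells are limited to an unknown extent.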
